A study of Mus musculus with 9 samples.

Results

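The calnexin cycle and the lectins of endoplasmic reticulum (ER)-associated degradation (ERAD) were followed through 10 genes, chosen by name for their part in the folding and disposal of glycoproteins: Calr, Canx, Ganab, Uggt1, Man1b1, Edem1, Edem2, Edem3, Os9 and Erlec1. They are 10 of the 46958 genes of the deposited count table. All 10 passed the filter on low counts that left 14199 genes for testing, with 1108 to 55525 counts per library.

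New glycoproteins enter the ER with an N-linked glycan whose outer glucoses are trimmed, in the later steps by glucosidase II (catalytic subunit Ganab). The trimmed chain is bound by the lectin chaperones calnexin (Canx, in the membrane) and calreticulin (Calr, in the lumen), and Uggt1 adds a glucose back to proteins that are still misfolded, which returns them to the chaperones. Proteins that stay misfolded lose mannoses to Man1b1 and the EDEM proteins, and the lectins Os9 and Erlec1 (also called XTP3-B) read the trimmed glycan and bring the protein to the Sel1l and Syvn1 ubiquitin ligase complex for export and destruction. Immunoglobulin heavy chains are glycosylated, and plasma cells fold and assemble them in a large ER.

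RNA was sequenced from plasma cells captured out of the spleen by magnetic beads that bind CD138 (syndecan-1, carried on the plasma cell surface), at a stated purity above 80%. Each of the 9 libraries came from 1 spleen of a mouse aged 3 months that had not been immunized, and all mice had a mixed C57/BL6x129/SVxBALB/c background. The groups were WT (n = 3), DH-LMP2A (n = 3) and kFRA (n = 3), and the study is on the toxicity to plasma cells of the free light chain of a light chain deposition disease (LCDD). The labels give the genotype of the kFRA mice as kFRA (LCDD). As background, the DH-LMP2A allele places the viral signalling protein LMP2A in the heavy chain locus, so that B cells develop without a heavy chain. Which alleles the kFRA mice carry, and whether DH-LMP2A is among them, is not given in the sources used here.

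Total counts were 15449026 to 21558128 per library. Immunoglobulin genes took 27.3% to 32.5% of them in DH-LMP2A, 43.57% to 55.4% in WT, 44.04% and 45.36% in kFRA replicates 1 and 3, and 29.21% in kFRA replicate 2, which stood apart from the other kFRA libraries. Levels below are in CPM, the count scaled to a common library total, after edgeR's TMM scaling, which uses a trimmed mean of log ratios to align libraries. The 8 plasma cell markers, Sdc1 (CD138) among them, had counts in every genotype and summed to 34150 to 47160 CPM in DH-LMP2A, 20400 to 32060 in kFRA and 18890 to 24140 in WT. Markers of other spleen cells also differed. In WT, DH-LMP2A and kFRA, the 8 B cell markers summed to 298.2 to 599.7, 362.4 to 537.4 and 200.6 to 228 CPM, and the 8 T cell markers to 46.68 to 99.47, 40.62 to 82.83 and 33.1 to 55.83. The 8 myeloid markers summed to 2559 to 4437, 717.9 to 2102 and 1489 to 2179 CPM, the 8 granulocyte markers to 271.3 to 858, 20.96 to 275.4 and 6.84 to 25.65, and the 8 erythroid markers to 39.3 to 341.4, 2566 to 13640 and 1167 to 2807. No listed marker was at 0 counts throughout a genotype. In such bulk samples fewer cells of a type and less RNA per cell cannot be told apart. The part of the plasma cell markers in the results was not tested, and values with the other marker lists as a covariate are given with the results whose call they end. Those lists differ between the genotypes, so a fit with this covariate cannot tell genotype apart from the presence of other cells. Sums hide members that moved apart from the rest: Jchain, the joining chain of secreted antibody, made up most of the plasma cell sum (30970 CPM on average in DH-LMP2A, 21120 in kFRA and 17830 in WT), while Tnfrsf17, the survival receptor BCMA, was at 22.01, 15.34 and 49.33 CPM, and of the 8 B cell markers 2 were higher and 3 lower in DH-LMP2A than in WT.

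All 10 genes were highest on average in DH-LMP2A and lowest in WT, with kFRA between. 13.3% of all genes tested had that order of means. For Calr the DH-LMP2A and kFRA means were 1903 and 1899 CPM and changed places when DESeq2's size factors were used or immunoglobulin genes were left out, and for Uggt1, Edem1 and Edem3 the kFRA level was so near that of WT that its sign changed under some settings. Between DH-LMP2A and WT the step ran from 1.253-fold for Edem3 to 3.045-fold for Erlec1. The test was edgeR's quasi-likelihood F test with Benjamini-Hochberg adjustment over all genes tested, passed at an adjusted p under 0.05. Erlec1, Os9 and Edem2 passed in DH-LMP2A and in kFRA against WT, Edem1 in DH-LMP2A against WT, and Erlec1 between kFRA and DH-LMP2A. These genes act late in the pathway, but Man1b1 and Edem3, which also act late, passed in no comparison. Partners of the earlier steps, Prkcsh among them, also passed against WT, as given below.

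**Figure D1:**
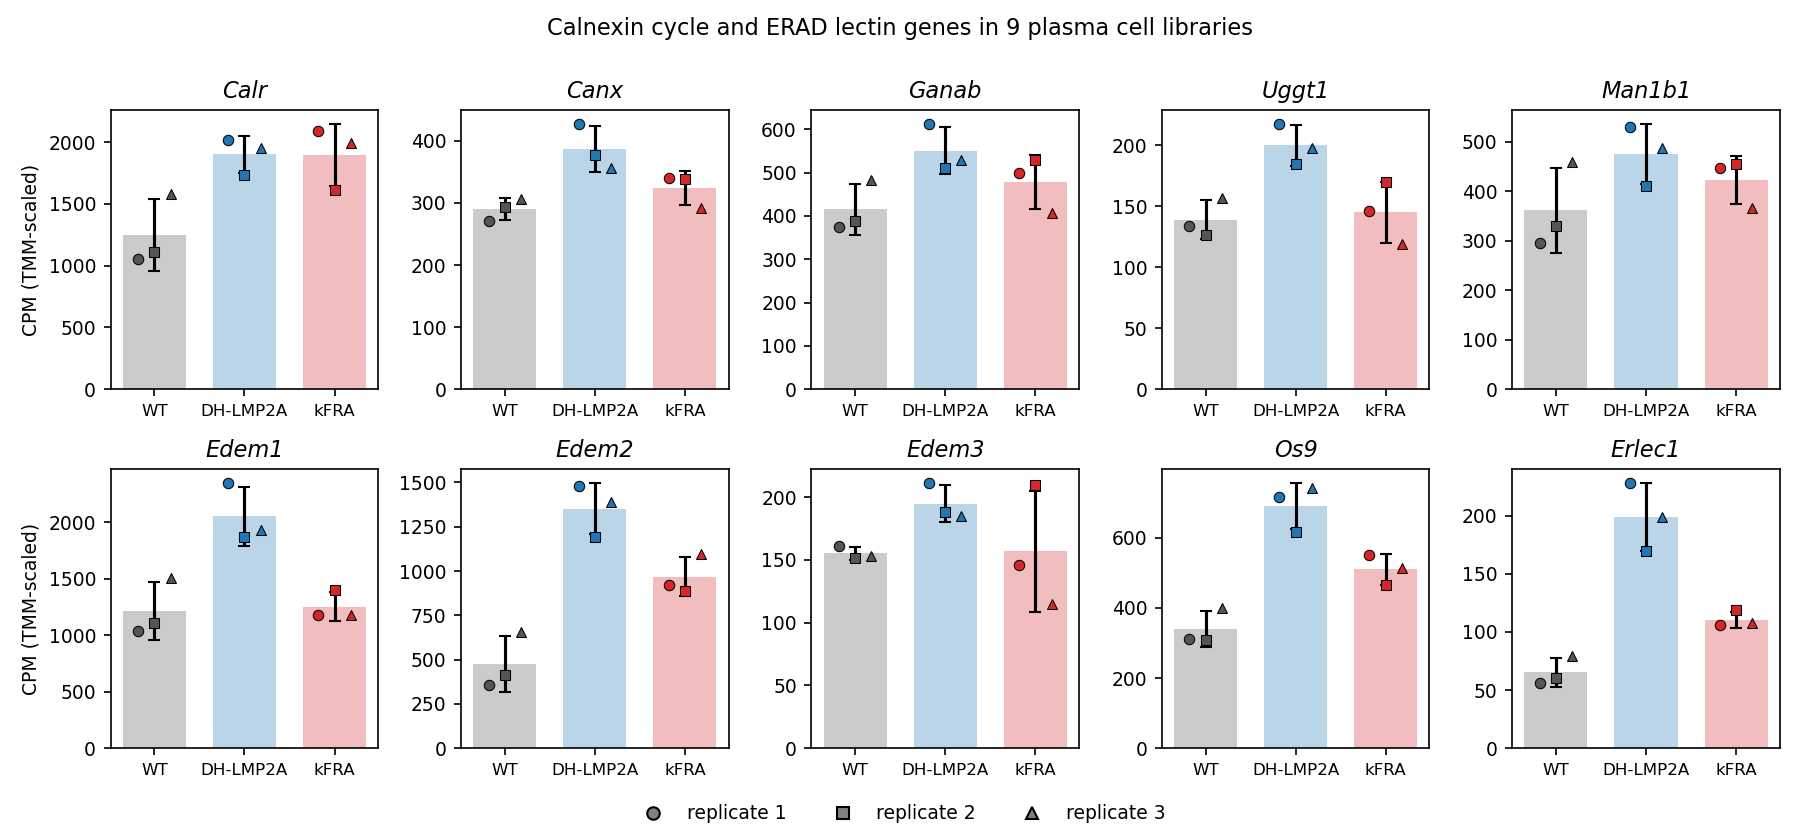
Level of each of the 10 genes in the 9 libraries, in TMM-scaled CPM, by genotype; bars are means of 3 libraries, error bars are SD and the point shape gives the replicate number. For Edem2, Os9 and Erlec1 the DH-LMP2A libraries lie above the kFRA libraries and these above the WT libraries, whereas the kFRA and WT libraries of Edem1, Edem3 and Uggt1 share a range.

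Calreticulin, the soluble lectin chaperone, is encoded on chromosome 8 (84841850 to 84846934, minus strand, GRCm38). Calr was at 1051, 1113 and 1584 CPM in WT replicates 1 to 3, at 2019, 1736 and 1953 CPM in DH-LMP2A and at 2091, 1613 and 1993 CPM in kFRA. WT replicate 3 came close to the lowest libraries of the other genotypes, but the WT range did not overlap with either. The difference was 0.61 ± 0.215 (log2 fold change ± SE) for DH-LMP2A against WT, with an adjusted p of 0.103, and 0.60 ± 0.215 for kFRA against WT, with an adjusted p of 0.0807, so neither passed the test. Between kFRA and DH-LMP2A the libraries overlapped (log2 fold change 0.00 ± 0.214, adjusted p = 0.997). Without kFRA replicate 2, the lowest kFRA library for Calr, the difference between kFRA and WT was 0.77 with an adjusted p of 0.033. Without WT replicate 3 it was 0.81 with an adjusted p of 0.0289, and these were the 2 of 6 fits with 1 library left out that passed. The difference between DH-LMP2A and WT passed in 1 of 6 such fits (adjusted p = 0.0356).

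Calnexin, the membrane-bound partner of calreticulin, is encoded on chromosome 11 (50293961 to 50325673, minus strand). Canx was at 270.4, 294 and 306 CPM in WT, 428, 376.6 and 356.4 CPM in DH-LMP2A and 340.7, 338.5 and 292.2 CPM in kFRA. It varied least of the 10 genes, the highest of the 9 libraries being 1.583 times the lowest. DH-LMP2A libraries were above those of both other genotypes, while kFRA replicate 3 lay among the WT libraries. No difference passed the test: the log2 fold change was 0.42 ± 0.141 for DH-LMP2A against WT (adjusted p = 0.0898), 0.16 ± 0.14 for kFRA against WT (adjusted p = 0.438) and -0.26 ± 0.14 in kFRA relative to DH-LMP2A (adjusted p = 0.302).

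The promoters of both chaperone genes hold an ER stress response element, the sequence through which ATF6 and related factors are known to act on ER chaperone genes in the unfolded protein response. Both are shown because no other of the 9 genes with a RefSeq promoter window (250 bases before to 50 after the start; Erlec1 has none in the table used) holds this element. The stretches below run from 180 to 110 bases before the RefSeq start (GRCm38.p6), on the gene's strand, and capitals mark the fixed letters of the element, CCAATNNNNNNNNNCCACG.
Canx, chr11:50325783-50325853, minus strand: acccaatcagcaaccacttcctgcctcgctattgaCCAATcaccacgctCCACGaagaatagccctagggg
Calr, chr8:84847041-84847111, minus strand: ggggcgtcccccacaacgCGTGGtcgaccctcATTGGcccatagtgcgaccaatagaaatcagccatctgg
In Canx the element reads forward, as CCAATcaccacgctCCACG, 145 to 127 bases before the start. In Calr it lies on the other strand, where it reads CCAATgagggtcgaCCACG, 162 to 144 bases before the start. On either strand it was found in 39 of 32851 RefSeq promoter windows of this length (0.119%). Among the partners described below, the windows of Syvn1, Hspa5, Hsp90b1 and Derl3 hold it too. The windows of Uggt1 and Man1b1 lie inside the GENCODE spans of these genes, so the sequence before their GENCODE starts was not searched. Element II (ATTGG, 1 base of any kind, CCACG, in 0.0365% of windows) and the core of the unfolded protein response element (TGACGTG, in 2.01%) were in none of the 9 windows. These are matches of letters, and no binding was measured.

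The catalytic subunit of glucosidase II is encoded on chromosome 19 (8898090 to 8916663, plus strand). Ganab was at 374, 389.5 and 482.9 CPM in WT, 613.6, 510.2 and 529.2 CPM in DH-LMP2A and 498.5, 529.7 and 408 CPM in kFRA. DH-LMP2A lay above WT without overlap, and kFRA spanned the gap between them and overlapped with both. The log2 fold changes were 0.41 ± 0.172 for DH-LMP2A against WT (adjusted p = 0.165), 0.20 ± 0.171 for kFRA against WT (adjusted p = 0.412) and -0.20 ± 0.171 between kFRA and DH-LMP2A (adjusted p = 0.504).

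Uggt1, the folding sensor that puts a glucose back on misfolded glycoproteins, lies on chromosome 1 (36140027 to 36244720, minus strand). Uggt1 was at 133.5, 126.2 and 156.8 CPM in WT, 217.9, 184.5 and 197.5 CPM in DH-LMP2A and 145.8, 169.9 and 119.2 CPM in kFRA. The DH-LMP2A libraries were above all others, and kFRA covered the WT range. For DH-LMP2A against WT the log2 fold change was 0.53 ± 0.162 (adjusted p = 0.0659), and for kFRA against WT 0.06 ± 0.161 (adjusted p = 0.799). The kFRA difference from DH-LMP2A was -0.46 ± 0.161 (adjusted p = 0.142). Without kFRA replicate 2, which was 1.283 times the mean of the other kFRA libraries, it was -0.53 and passed the test (adjusted p = 0.0465).

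Man1b1, an alpha-mannosidase that removes a mannose from glycans of slowly folding proteins, lies on chromosome 2 (25332338 to 25352212, plus strand). Man1b1 was at 294.7, 328.9 and 458.9 CPM in WT, 530, 410.1 and 486.7 CPM in DH-LMP2A and 447, 454.7 and 366 CPM in kFRA. It was the 1 gene of the 10 whose DH-LMP2A and WT libraries overlapped, and no difference passed the test (log2 fold change 0.40 ± 0.2 for DH-LMP2A against WT, adjusted p = 0.246). The corresponding values were 0.23 ± 0.2 for kFRA against WT (adjusted p = 0.434) and -0.17 ± 0.2 between kFRA and DH-LMP2A (adjusted p = 0.644). An exon of AA543186 overlaps Man1b1 on the opposite strand and the strand setting of the counting is not given in the sources used here, so the Man1b1 counts are uncertain.

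The EDEM proteins (ER degradation-enhancing alpha-mannosidase-like proteins) trim glycans further and commit a protein to ERAD. Edem2, which starts this trimming and lies on chromosome 2 (155701677 to 155729475, minus strand), was at 356.2, 410.4 and 655.3 CPM in WT. It was at 1478, 1192 and 1388 CPM in DH-LMP2A and 921.6, 886.8 and 1095 CPM in kFRA. The 3 genotypes did not overlap, and the highest library held 4.15 times the level of the lowest, the widest range of the 10 genes. Edem2 rose 2.854-fold in DH-LMP2A against WT (log2 fold change 1.51 ± 0.245, adjusted p = 0.00418) and 2.042-fold in kFRA against WT (1.03 ± 0.243, adjusted p = 0.0194). The difference between kFRA and DH-LMP2A was -0.48 ± 0.241 with an adjusted p of 0.265. The rise in kFRA no longer passed without kFRA replicate 1 (adjusted p = 0.0563), kFRA replicate 3 (0.0631), WT replicate 1 (0.0589) or WT replicate 2 (0.0816), or with the marker covariate (adjusted p = 0.16, log2 fold change 1.13). The rise in DH-LMP2A passed with each of the 6 DH-LMP2A and WT libraries left out in turn and with the covariate.

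Edem1, on chromosome 6 (108828641 to 108859356, plus strand), was at 1034, 1104 and 1507 CPM in WT, 2349, 1869 and 1933 CPM in DH-LMP2A and 1180, 1398 and 1179 CPM in kFRA. All kFRA libraries fell inside the WT range, and all DH-LMP2A libraries were above it. Edem1 rose 1.688-fold in DH-LMP2A against WT (log2 fold change 0.76 ± 0.207, adjusted p = 0.0435), and this call was lost when any replicate of either genotype other than WT replicate 3 was left out (adjusted p 0.0805 to 0.175) with the marker covariate (0.111) and with only the 6 libraries compared (0.0651). For kFRA the log2 fold change was 0.04 ± 0.206 against WT (adjusted p = 0.894) and -0.71 ± 0.207 against DH-LMP2A (adjusted p = 0.0886).

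Edem3, on chromosome 1 (151755371 to 151822051, plus strand), was at 161.4, 151.7 and 153.4 CPM in WT, 211.6, 188 and 185.1 CPM in DH-LMP2A and 146.2, 209.7 and 114.8 CPM in kFRA. The kFRA libraries overlapped with both other genotypes, and kFRA replicate 2 was 1.606 times the mean of replicates 1 and 3. No difference passed the test: the log2 fold change was 0.33 ± 0.201 for DH-LMP2A against WT (adjusted p = 0.353), 0.01 ± 0.201 for kFRA against WT (adjusted p = 0.97) and -0.31 ± 0.201 between kFRA and DH-LMP2A (adjusted p = 0.379). With kFRA replicate 2 left out, Edem3 was lower in kFRA than in DH-LMP2A (-0.52, adjusted p = 0.0356).

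Os9 and Erlec1 are the lectins that bind the mannose-trimmed glycan, each through a domain related to the mannose 6-phosphate receptor. Os9, on chromosome 10 (127094259 to 127121160, minus strand), was at 311.6, 309.8 and 400.1 CPM in WT, 716.6, 617.3 and 741.4 CPM in DH-LMP2A and 552, 464.1 and 513.8 CPM in kFRA. The genotypes were separate, in the order WT, kFRA, DH-LMP2A. Os9 rose 2.032-fold in DH-LMP2A against WT (log2 fold change 1.02 ± 0.167, adjusted p = 0.00424) and 1.498-fold in kFRA against WT (0.58 ± 0.165, adjusted p = 0.0392). The difference between kFRA and DH-LMP2A was -0.44 ± 0.165 (adjusted p = 0.165). The rise in kFRA no longer passed without kFRA replicate 1 (0.141), kFRA replicate 3 (0.0916), WT replicate 1 (0.114) or WT replicate 2 (0.139), with no filter on low counts (0.0629), with only the 6 libraries compared (0.0768) or with the marker covariate (adjusted p = 0.355). The rise in DH-LMP2A passed with each of the 6 DH-LMP2A and WT libraries left out in turn and with the covariate.

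Erlec1, on chromosome 11 (30930774 to 30954335, minus strand), was at 56.12, 60.44 and 79.29 CPM in WT, 228.2, 169.2 and 198.9 CPM in DH-LMP2A and 105.6, 118.4 and 107.2 CPM in kFRA. Its 3 genotypes were separate too, and the kFRA libraries were the tightest (110.4 ± 6.979 CPM, SD, n = 3). Erlec1 rose 3.045-fold in DH-LMP2A against WT (log2 fold change 1.61 ± 0.171, adjusted p = 0.000394), the largest change of the 10 genes, and 1.692-fold in kFRA against WT (0.76 ± 0.168, adjusted p = 0.0151). It was the 1 gene of the 10 that differed between kFRA and DH-LMP2A: the level was 1.8-fold lower in kFRA than in DH-LMP2A (-0.85 ± 0.168, adjusted p = 0.0208). That call was lost without DH-LMP2A replicate 1 (-0.68, adjusted p = 0.125), DH-LMP2A replicate 3 (adjusted p = 0.0691), kFRA replicate 1 (0.108) or kFRA replicate 3 (0.0742), and with the marker covariate (-0.84, adjusted p = 0.739). It passed without kFRA replicate 2 (0.0206) and without DH-LMP2A replicate 2 (0.0412). The rise of Erlec1 in kFRA against WT was lost without WT replicate 1 (0.0546), without WT replicate 2 (0.0697) and with the covariate (0.173).

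Counted over the 10 genes, 4 rose and none fell in DH-LMP2A against WT, where 12.4% of all genes tested passed, 5.07% being higher and 7.30% lower. In kFRA against WT 3 rose and none fell, where 17.8% of all genes passed, 6.68% being higher and 11.1% lower. Between kFRA and DH-LMP2A 1 gene was lower in kFRA and none higher, where 5.02% of all genes passed, 1.73% being higher and 3.30% lower. The counts were 3, 0 and 0 with the marker covariate. In that fit the SE widened: Erlec1 in kFRA against DH-LMP2A was at -0.84 ± 0.321, against -0.85 ± 0.168 without the covariate. Os9 in kFRA against WT was at 0.48 ± 0.25, against 0.58 ± 0.165. For kFRA against WT 4 passed without kFRA replicate 2, 1 without kFRA replicate 1 or 3, and 0 without WT replicate 1 or 2. For kFRA against DH-LMP2A 3 passed without kFRA replicate 2 (Erlec1, Uggt1 and Edem3), and 0 without kFRA replicate 1 or 3 or DH-LMP2A replicate 1 or 3. Libraries of DH-LMP2A and WT did not overlap for 9 of the 10 genes, all higher in DH-LMP2A, as for 36.6% of all genes (17.5% higher, 19.1% lower). Those of kFRA and WT did not overlap for 4, all higher in kFRA, as for 34.3% of all genes (14.2% higher, 20.2% lower). Those of kFRA and DH-LMP2A did not overlap for 6, all lower in kFRA, as for 25.6% of all genes (11.6% higher, 13.9% lower). The median log2 fold change of the 10 genes was 0.57, 0.22 and -0.38 in these comparisons, and that of all genes tested was -0.01, -0.04 and 0.00. The comparisons share libraries pairwise and are not independent of each other.

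**Figure D2:**
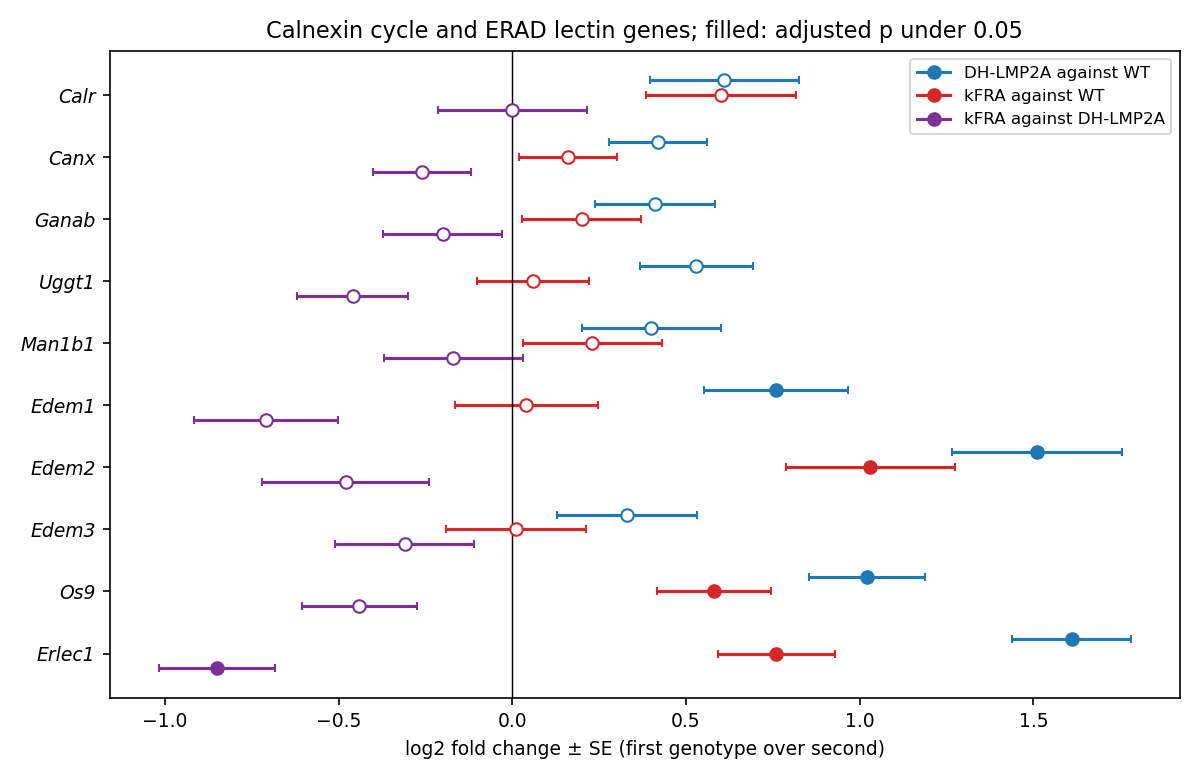
Log2 fold change (x axis) of the 10 genes in the 3 comparisons, with error bars of 1 SE from the edgeR fit; filled points passed at an adjusted p under 0.05. The 4 filled points of DH-LMP2A against WT are Erlec1, Edem2, Os9 and Edem1, and the 1 filled point of kFRA against DH-LMP2A is Erlec1.

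The number of calls against WT depended on the scaling. With library size alone the median of all genes moved to 0.334 for DH-LMP2A against WT, and the share of calls that were higher moved from 41% to 79.85%. For kFRA against WT the median moved to 0.174 and the share from 37.57% to 72.04%. Under this scaling the 10 genes ran from 0.67 (Edem3) to 1.97 (Erlec1) for DH-LMP2A against WT, where 9 of them passed, and from 0.27 (Edem3) to 1.26 (Edem2) for kFRA against WT, so that each lay above the shift of all genes.

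Levels per kilobase of merged exon put genes of different length on a common scale. That length covers all annotated exons rather than the transcripts expressed here, so ranks between genes and the shares below depend on the annotation. By this measure calreticulin was the most abundant in each genotype, at 433.8, 660.7 and 659.3 CPM per kb (means of WT, DH-LMP2A and kFRA). Canx was far below it, at 61.82, 82.47 and 69 CPM per kb. Edem1 and Edem2 came next after Calr: the WT means were 188.3 and 136.9, with overlapping libraries, the DH-LMP2A means 317.8 and 390.7, also overlapping, and the kFRA means 194 and 279.4, without overlap. Uggt1 was the lowest in each genotype, at 10.8, 15.56 and 11.28 CPM per kb. In WT, the neighbours whose libraries did not overlap were Calr and Edem1, Canx and Edem3, and Erlec1 and Uggt1. In DH-LMP2A the neighbours that overlapped were Edem2 with Edem1, Os9 with Ganab, and Man1b1 with Canx, and in kFRA they were Os9 with Ganab, Man1b1 with Canx, and Erlec1 with Edem3. Erlec1 stood below Edem3 in WT (20.03 against 24.37 CPM per kb) and above it without overlap in DH-LMP2A (60.97 against 30.54).

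**Figure D3:**
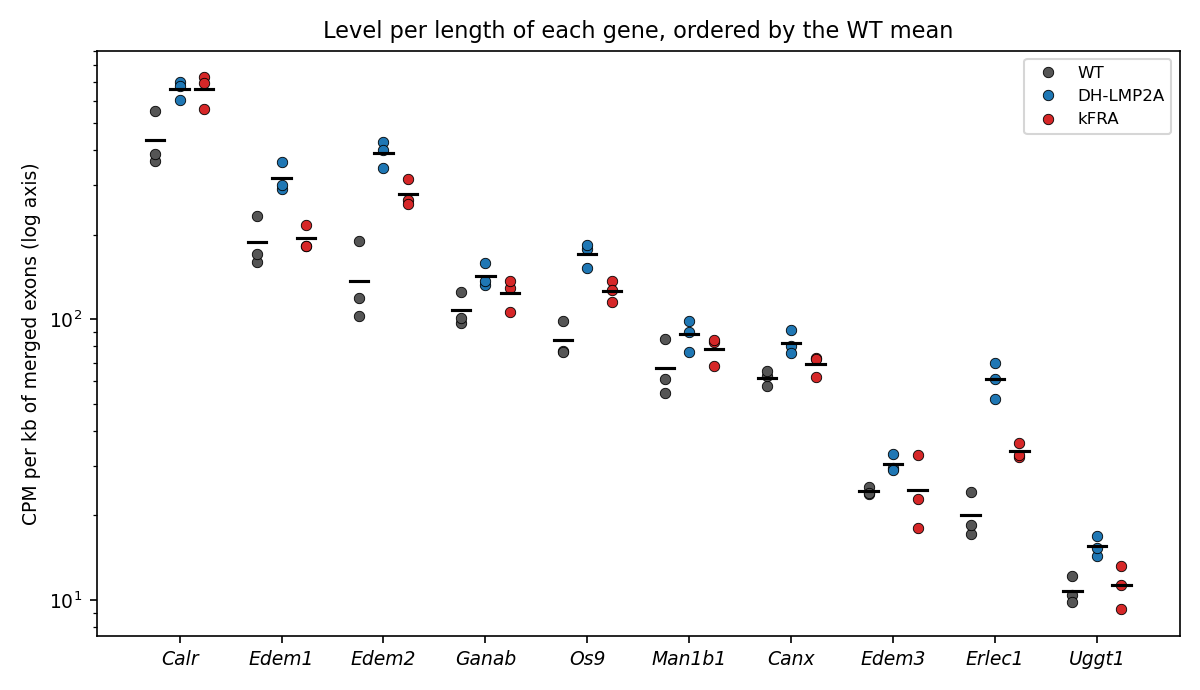
TMM-scaled CPM per kb of merged exon (log axis) of the 10 genes in each genotype; points are libraries and short lines are means. Calr is at the top and Uggt1 at the bottom in all 3 genotypes, and Erlec1 moves from below Edem3 in WT to above it in DH-LMP2A.

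Shares between related genes within a library do not depend on the scaling between libraries. Edem1 made up 55.55%, 54.59% and 52.27% of the counts per kb of the 3 EDEM genes in WT, 44.18%, 43.65% and 41.08% in DH-LMP2A and 38.74%, 42.85% and 35.35% in kFRA. The share was lower in each DH-LMP2A and kFRA library than in each WT library. The mean difference from WT was -11.17 percentage points in DH-LMP2A (exact permutation p = 0.1) and -15.15 points in kFRA (exact permutation p = 0.1), and 0.1 is the smallest p that 3 against 3 allows. Edem2 had the reverse order, with mean shares of 38.62%, 52.88% and 56.07% in WT, DH-LMP2A and kFRA.

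Erlec1 made up 18.28%, 19.5% and 19.75% of the counts per kb of Erlec1 and Os9 in WT, 28.34%, 25.39% and 24.99% in DH-LMP2A and 19.2%, 24.06% and 20.58% in kFRA. Each DH-LMP2A library was above all libraries of the other genotypes. The mean difference was 7.064 points for DH-LMP2A against WT (exact permutation p = 0.1), -4.961 points for kFRA against DH-LMP2A (exact permutation p = 0.1) and 2.103 points for kFRA against WT (exact permutation p = 0.3). Calr made up 87.27% ± 1.852 of Calr and Canx in WT, 88.89% ± 0.9055 in DH-LMP2A and 90.41% ± 1.635 for kFRA (SD, n = 3), with overlapping libraries in all 3 comparisons. Of the 9 such 2-sided tests none passed, the lowest adjusted p being 0.225.

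**Figure D4:**
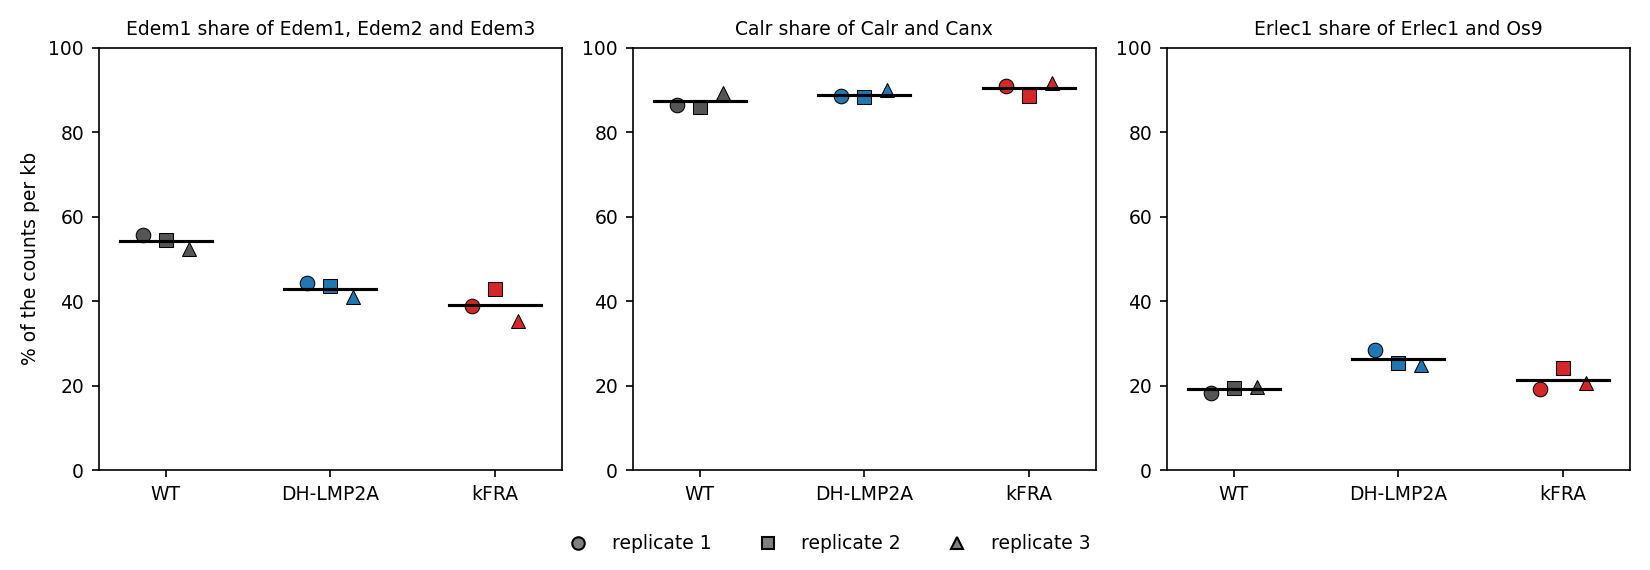
Share in percent of counts per kb, by library and genotype, for Edem1 among the 3 EDEM genes, Calr among Calr and Canx, and Erlec1 among Erlec1 and Os9; points are libraries, with shapes for replicate numbers, and lines are means. The Edem1 share is at least 52.27% in the WT libraries and at most 44.18% in the others, and the Erlec1 share is highest in the DH-LMP2A libraries.

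Of the 42 other genes of the pathway listed, 41 were matched in the table by symbol and 40 were tested (all but Selenof, not matched, and Clgn, not past the filter). In DH-LMP2A against WT 8 rose and none fell (median log2 fold change 0.29), where 12.4% of all genes passed (5.07% higher, 7.30% lower). In kFRA against WT 11 rose and 1 fell (median 0.43), where 17.8% of all genes passed (6.68% higher, 11.1% lower). Between kFRA and DH-LMP2A 2 were higher and 2 lower in kFRA (median 0.01), where 5.02% of all genes passed (1.73% higher, 3.30% lower). With the marker covariate 5, 0 and 0 genes passed in these comparisons, so that every kFRA call described below was lost in that fit, and without kFRA replicate 2 25 passed for kFRA against WT and 9 when kFRA was set against DH-LMP2A. In kFRA against WT 1 gene passed without WT replicate 2, 6 without WT replicate 1 and 4 without kFRA replicate 1 or 3. In DH-LMP2A against WT 4 passed without WT replicate 2 and 5 without WT replicate 1 or DH-LMP2A replicate 1. Between kFRA and DH-LMP2A, 1 or 2 passed when a library other than kFRA replicate 2 was left out.

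Among the partners of the calnexin cycle, 3 of 7 tested rose in DH-LMP2A against WT and 3 in kFRA against WT, and none passed between kFRA and DH-LMP2A. Of all genes tested, 5.07% and 6.68% were called higher in the comparisons with WT. Prkcsh, the regulatory subunit of glucosidase II that partners Ganab, was at 111.1, 106 and 149.3 CPM in WT, 325.1, 268.7 and 302.8 CPM in DH-LMP2A and 189.8, 190.8 and 245.2 CPM in kFRA. The 3 genotypes were separate, unlike those of Ganab. Prkcsh rose in DH-LMP2A against WT (log2 fold change 1.29 ± 0.181, adjusted p = 0.00205) and in kFRA against WT (0.77, adjusted p = 0.0181). The second call was lost in 3 of 6 fits with 1 library left out (adjusted p up to 0.08) and with the covariate (0.136), and the first in none of these. Ppib, a cyclophilin that speeds proline isomerization in the ER, rose by 1.21 ± 0.203 in DH-LMP2A (adjusted p = 0.00503) and 0.69 in kFRA (adjusted p = 0.0436, lost in 4 of 6 such fits and, at 0.276, with the covariate). Pdia3, the disulfide isomerase that works with Calr and Canx, rose by 0.68 (adjusted p = 0.0347) and 0.64 (adjusted p = 0.0345), but passed in only 1 and 2 of the 6 fits with 1 library left out and in neither comparison with the covariate (0.0609 and 0.363). Exons on the opposite strand overlap Ppib and Pdia3, so their counts are uncertain.

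Of the 12 partners of the ERAD lectins tested, 5 rose in kFRA against WT (Syvn1, Hspa5, Hsp90b1, Derl3 and Sdf2l1) and 2 in DH-LMP2A against WT (Hsp90b1 and Sdf2l1), and for 1, Syvn1, kFRA was above DH-LMP2A. The shares of all genes called higher in these comparisons were 6.68%, 5.07% and 1.73%. Hsp90b1 and Sdf2l1 were called in both comparisons with WT, and each of these calls was lost in 3 or more of the 6 fits with 1 library left out. Syvn1, the ubiquitin ligase to which Os9 and Erlec1 deliver their cargo, was at 384.2, 312.6 and 453.8 CPM in WT, 355.7, 326.7 and 377.5 CPM in DH-LMP2A and 627.3, 603.7 and 751.8 CPM in kFRA. DH-LMP2A stayed inside the WT range and kFRA was above both. The log2 fold change was 0.90 ± 0.178 for kFRA against DH-LMP2A (adjusted p = 0.0203) and 0.79 for kFRA against WT (adjusted p = 0.0166). The first call was lost in 5 of the 6 fits with 1 library left out (adjusted p up to 0.0939) and passed without kFRA replicate 2 (0.0107). The second was lost in 2 of 6 such fits, and both were lost with the covariate (0.605 and 0.161). An exon of Mrpl49 overlaps Syvn1 on the opposite strand.

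Hspa5 (BiP), the main ER chaperone and a binding partner of unassembled immunoglobulin chains, was at 1981, 1689 and 3060 CPM in WT, 2581, 2008 and 2336 CPM in DH-LMP2A and 4698, 3409 and 4345 CPM in kFRA. All kFRA libraries were above those of the other genotypes, which overlapped. Hspa5 rose in kFRA against WT (0.89, adjusted p = 0.0482), a call lost in 4 of 6 fits with 1 library left out (adjusted p up to 0.155), with only the 6 libraries compared (0.0978) and with the covariate (0.398). The difference from DH-LMP2A was 0.85 ± 0.267 with an adjusted p of 0.111. It was 1.03 with an adjusted p of 0.0386 without kFRA replicate 2 and did not pass in the other 5 fits (up to 0.327). DH-LMP2A against WT gave 0.04 (adjusted p = 0.949). Derl3, a derlin of the export channel, was at 333, 324.3 and 404 CPM in WT, 438, 444.4 and 455.9 CPM in DH-LMP2A and 852.9, 504.7 and 954.8 CPM in kFRA, and rose in kFRA against WT (1.12 ± 0.232, adjusted p = 0.011), a call lost without WT replicate 2 (0.0507) and with the covariate (0.151).

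**Figure D5:**
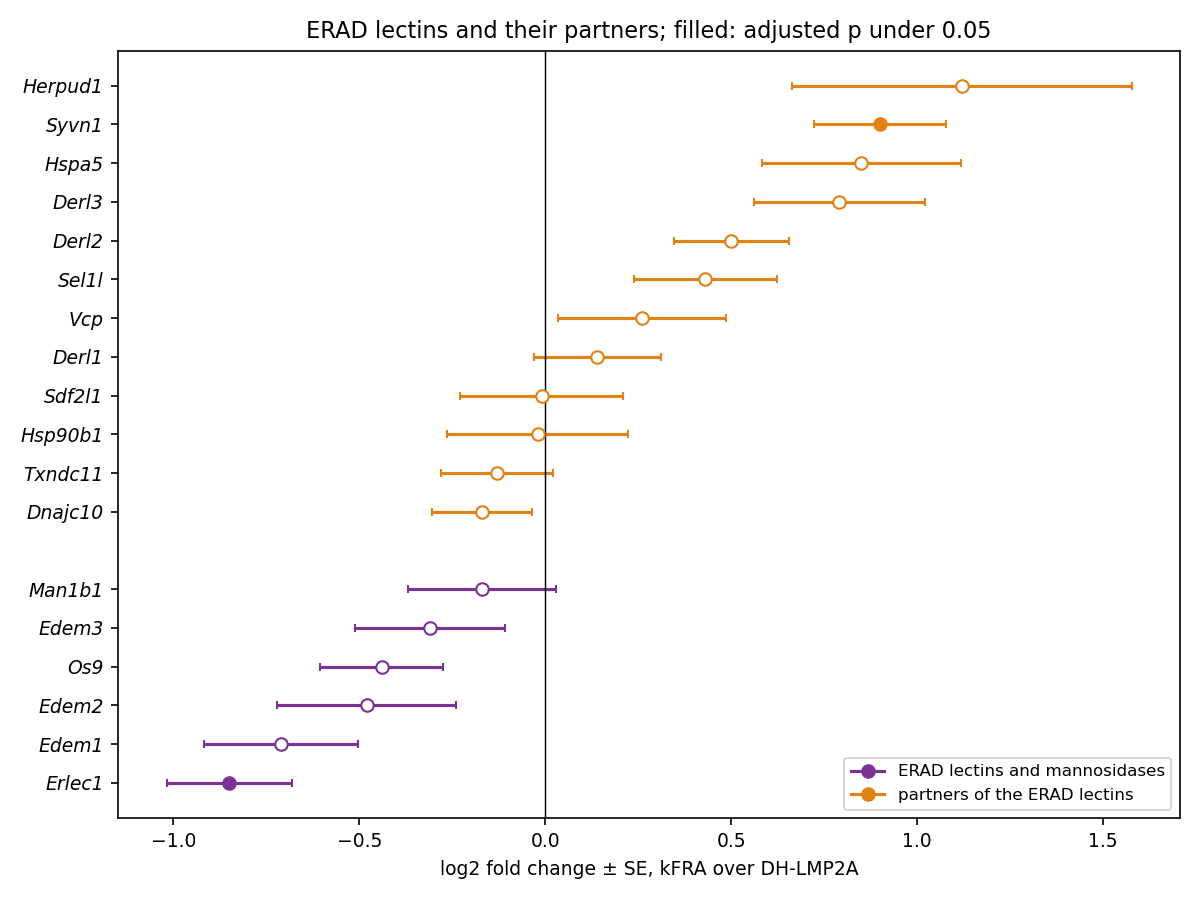
Log2 fold change of kFRA over DH-LMP2A (x axis), with error bars of 1 SE from the edgeR fit, for the 6 mannosidases and lectins of ERAD and the 12 partners of the ERAD lectins; filled points passed at an adjusted p under 0.05. All 6 of the former lie below 0, with Erlec1 filled at -0.85, and 8 of the 12 partners lie above 0, with Syvn1 filled at 0.90.

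The Golgi mannosidases, which work on glycans of proteins that have left the ER, included both of the listed genes that were lower in kFRA than in DH-LMP2A, Man1a and Man2a1. The others listed did not pass in that comparison, with log2 fold changes of -0.16 for Man1a2, 0.37 for Man1c1 and 0.13 for Man2a2. In kFRA against WT, Man2a2 was called higher (0.81, adjusted p = 0.0325) and Man1a2 lower (-0.68, adjusted p = 0.0257), neither with the marker covariate. Man1a was at 311.5, 331.4 and 370.1 CPM in WT, 551, 526.8 and 614.1 CPM in DH-LMP2A and 293.8, 313.4 and 299 CPM in kFRA. DH-LMP2A was above both other genotypes, in contrast to the overlapping Man1b1. Man1a rose by 0.74 ± 0.138 in DH-LMP2A against WT (adjusted p = 0.0085) and was lower in kFRA than in DH-LMP2A (-0.90 ± 0.139, adjusted p = 0.00529), a call kept in all 6 fits with 1 library left out and lost with the marker covariate (0.543). Man2a1 was also lower in kFRA than in DH-LMP2A (-1.10 ± 0.26, adjusted p = 0.0439). That call passed in 1 of the 6 fits with 1 library left out, the fit without kFRA replicate 2 (adjusted p = 0.00245, against 0.0526 to 0.177 in the others), and was lost with library size alone (0.148), a mean of at least 5 CPM (0.0517), only the 6 libraries compared (0.0922) and the covariate (0.886). Man2a1 shares exonic sequence with Gm17133 on the other strand.

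Of the 7 factors of the unfolded protein response, 1 passed in each comparison, and each of these calls was higher. Of all genes tested, 5.07% were called higher in DH-LMP2A against WT, 6.68% in kFRA against WT and 1.73% in kFRA against DH-LMP2A. In either direction 12.4%, 17.8% and 5.02% passed, and 1 of 7 is near the shares against WT. Ddit3 (CHOP), a transcription factor of prolonged ER stress, was at 21.17, 16.02 and 22.8 CPM in WT, 17.6, 20.65 and 26.36 CPM in DH-LMP2A and 48.77, 33.3 and 47.23 CPM in kFRA. It was higher in kFRA than in WT (1.11 ± 0.213, adjusted p = 0.00787) and than in DH-LMP2A (1.0 ± 0.212, adjusted p = 0.0278), the latter call being lost in 4 of 6 fits with 1 library left out and both with the covariate (0.148 and 0.862), and it shares exonic sequence with Mars and Gm4189 on the other strand. The DH-LMP2A and WT libraries overlapped (0.11, adjusted p = 0.814). Xbp1, whose spliced form drives many ERAD genes, did not pass in any comparison (log2 fold change 0.39 for DH-LMP2A against WT, adjusted p = 0.368, 0.27 for kFRA against WT, adjusted p = 0.447, and -0.12 for kFRA against DH-LMP2A, adjusted p = 0.814), and gene counts do not separate its spliced form. Ern1, the sensor that splices Xbp1, rose in DH-LMP2A against WT (0.79, adjusted p = 0.0327), a call lost in 5 of 6 fits with 1 library left out and with the covariate (0.111).

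The genes whose pattern over the 9 libraries was most like that of each member were found by the root mean square difference of centred log2 CPM, over 9624 candidate genes. For Erlec1 they were Ddost (0.078) and Rpn2 (0.084), both subunits of the oligosaccharyltransferase that attaches the glycan, and Sil1 (0.145), a nucleotide exchange factor of BiP, where the median candidate was at 0.722. For Edem2 they were Pdia6 (0.099) and Pdia4 (0.125), both disulfide isomerases, and Ergic3 (0.129). For Os9 they were Gnptg (0.092), Sdf4 (0.092) and Spcs3 (0.102), the last a subunit of the signal peptidase, and for Calr they were Tmem258 (0.053), Lman2 (0.077) and Rpn1 (0.081). Ganab and Man1b1 had Hspa13 (0.059 and 0.074) and Stt3a (0.098 and 0.102) in common, followed by Cad (0.1) for Ganab and Slc38a10 (0.103) for Man1b1. Edem1 was closest to Arsa (0.095), Maged2 (0.109) and Nomo1 (0.111), Edem3 to Fndc3a (0.063), Ltn1 (0.086) and Trip11 (0.087), Canx to Tgoln1 (0.069), Impa1 (0.071) and Thtpa (0.085), and Uggt1 to Pcsk7 (0.098), Hacd2 (0.107) and Slc39a11 (0.108). Among the 10 genes themselves Canx and Ganab, and Ganab and Man1b1, were closest (0.083 each) and Edem2 and Edem3 farthest apart (0.663). These are descriptions over 9 libraries that share their genotypes and their depth.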

How the data were processed

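Polyadenylated RNA of 9 libraries was sequenced as paired reads of 75 bases with a strand-specific kit, per the labels' protocols. The authors deposited raw read counts per gene. Per the submitters' processing notes the tools were STAR 2.4.0a, featureCounts, Subread 1.5.0-p3 and DESeq2, with builds mm10 and GRCm38 and no roles given, and the strand setting is not given in the sources used here. Genes with exons on the opposite strand are therefore uncertain. Among the members, the listed pathway genes and the markers, those named are Man1b1, Syvn1, Ddit3, Pdia3, Ppib, Hsp90b1, Man2a1 and Man2a2. Overlaps were not searched for the genes most like each member that lie outside these lists. Other deposited columns give coordinates and exon length.

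Counts were tested with edgeR 4.0.16 (filterByExpr by genotype, TMM, quasi-likelihood F test, 2-sided, 3 pairwise contrasts from 1 fit to all 9 libraries) with Benjamini-Hochberg adjustment over 14199 genes and a threshold of 0.05, and the fit was tested on simulated counts. SE is the log2 fold change divided by the root of F. Counts per kb used merged exon length. At this depth 3 counts, the floor of detection, are 0.1392 to 0.1942 CPM, for counting error only. No replicates agreed within sampling noise (chi-square per degree of freedom 17.26 to 163.9). Each library is a different mouse, so p-values cover the spread between mice and libraries. Promoters and motif searches used RefSeq windows (GRCm38.p6), and gene spans GENCODE M21.

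The members and lists were chosen with earlier results of these data known. All 10 members were named whatever their values, and of the pathway lists the 3 genes with the smallest p per comparison with Hspa5, Ddit3 and Xbp1, and the 3 genes most like each member among non-immunoglobulin genes with a mean of at least 5 CPM. Pdia3, Hsp90b1, Sdf2l1, Man2a1, Man1a2, Man1c1, Man2a2 and Ern1 were named after their values were seen. Alternatives were other scalings, filters, thresholds and tests, a marker covariate (mean log2 CPM of the 5 lists of other spleen cells), a replicate block, and each replicate left out. Those for pathway genes were added after the data had been seen.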

Additional observations from a re-analysis of the deposited data

How the results depend on the processing

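Of 180 log2 fold changes of the 10 genes with 1 library left out, 171 kept their direction, as did 263 of 270 under the other settings. The counts of genes past the threshold moved as follows, in the order kFRA against DH-LMP2A, kFRA against WT and DH-LMP2A against WT. With 1 library left out, the 10 genes gave 0 to 3, 0 to 4 and 3 to 5, and the pathway genes 1 to 9, 1 to 25 and 4 to 9. With the marker covariate they gave 0, 0 and 3 of the 10 genes and 0, 0 and 5 pathway genes. With the DESeq2 Wald test they gave 2, 4 and 7, and 7, 19 and 14. At an adjusted p under 0.01 they gave 0, 0 and 3, and 1, 1 and 4. Library size alone gave 9 of the 10 genes and 18 pathway genes for DH-LMP2A against WT and 20 pathway genes for kFRA against WT. With only the 6 libraries compared, 2 and 5 pathway genes passed in the first and second comparison. Over all genes tested, 713, 2523 and 1756 passed, against 146, 467 and 1130 with the covariate and 1405, 3515 and 2528 with the Wald test, and without kFRA replicate 2 the first and second were 3299 and 5632.

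Directions changed only for differences near 0 that had not passed. Calr, kFRA against DH-LMP2A, was 0.03 with DESeq2 size factors and with the Wald test, 0.04 without immunoglobulin genes and -0.08 to 0.16 with 1 library left out. In kFRA against WT, Uggt1 was -0.06 with the covariate and 0.00 to 0.19 with 1 library left out, Edem1 -0.06 to 0.23, and Edem3 0.00 with a mean of at least 5 CPM, -0.02 with the replicate block, -0.05 with the covariate and -0.19 to 0.20 with 1 library left out. Xbp1 in kFRA against DH-LMP2A ran from -0.21 to 0.06, and in DH-LMP2A against WT Hspa5 from -0.13 to 0.33 and Ddit3 from -0.06 to 0.23. Counts of the 10 genes with the replicate block were 1, 3 and 3, Edem1 in DH-LMP2A against WT being lost (adjusted p = 0.0579). The numbers do not pair the mice: deviations of same-numbered libraries correlated at -0.211 to 0.196, and 4 of 9 libraries were closest to their own number. Fits with 2 libraries in a genotype assume the spread of the others. The causes of these changes were not tested. Depth did not limit the 10 genes, whose lowest count was 1108.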

Other observations

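The balance of Erlec1, Os9 and Edem2 with the partners Syvn1 and Hspa5 can be read within a library, where the scaling between libraries cancels out. These ratios of counts were chosen after the values had been seen and were not tested. They do not stand for all 12 partners of the ERAD lectins, of which 8 had log2 fold changes above 0 and 4 below 0 in DH-LMP2A against WT. Syvn1 (-0.12) and Hspa5 (0.04) were near 0 there, while Hsp90b1 (1.07) and Sdf2l1 (0.84) were called higher. Syvn1, the ubiquitin ligase, had 1.559, 1.931 and 1.898 counts per count of Erlec1 in DH-LMP2A replicates 1 to 3, against 6.847, 5.172 and 5.724 in WT and 5.94, 5.098 and 7.013 in kFRA. The DH-LMP2A libraries were below all others, and WT and kFRA overlapped. The count of Syvn1 per count of Os9 gave 0.4964, 0.5293 and 0.5091 in DH-LMP2A, 1.233, 1.009 and 1.134 in WT and 1.136, 1.301 and 1.463 in kFRA, again with DH-LMP2A apart and the other genotypes overlapping.

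For BiP the same held: Hspa5 had 11.31, 11.87 and 11.74 counts per count of Erlec1 in DH-LMP2A, 35.31, 27.95 and 38.6 in WT and 44.48, 28.79 and 40.53 in kFRA. Hspa5 per Edem2 gave 1.746, 1.684 and 1.683 in DH-LMP2A, 5.562, 4.115 and 4.67 in WT and 5.097, 3.844 and 3.969 in kFRA. For both ratios the DH-LMP2A libraries were below all others, and WT and kFRA overlapped.

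The Golgi mannosidase Man1a per count of Man1b1 gave another order, with 1.04, 1.285 and 1.262 in DH-LMP2A, 1.057, 1.008 and 0.8065 in WT and 0.6573, 0.6893 and 0.817 in kFRA. Here the kFRA libraries were the lowest, apart from an overlap of kFRA replicate 3 with WT replicate 3.

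WT replicate 3 was the highest WT library for 9 of the 10 genes, all but Edem3, and DH-LMP2A replicate 1 the highest of its genotype for 9, all but Os9, while in kFRA replicates 1, 2 and 3 were highest for 3, 6 and 1 genes. WT replicate 3 also had the largest immunoglobulin share of the WT libraries (55.4%). It had the lowest TMM factor (0.7794), which raises scaled levels, and for Canx, Uggt1 and Ganab its rank depended on the scaling. Its unscaled count of Canx (4804) was the lowest of the WT libraries (5339 and 5765 in replicates 1 and 2). For Calr, Man1b1, Edem1, Edem2, Os9 and Erlec1 its unscaled count was the highest of the WT libraries too. For Edem2 that count was 10290, against 7033 and 8047 in replicates 1 and 2.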
